A study of Rattus norvegicus with 9 samples.

Results

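Hoxa9 and Hoxc9, 2 of the 30452 features counted in arteries of adult rats, were taken by their gene symbols, each of which stood on 1 line. They were chosen by their measured CPM, which varied between replicates of mesenteric artery and were near 0 in pulmonary artery, so their levels in all 9 libraries are given as a description, with no test. The arteries were dissected from offspring aged 3 to 5 months, and all dams ate a standard diet. Mesenteric artery of high-sucrose offspring, whose dams drank 20% sucrose water in pregnancy, had 3 libraries (replicates 1, 2 and 3). Control offspring, whose dams drank ordinary water, gave 3 libraries of pulmonary artery (numbered 1, 2 and 4) and 3 of mesenteric artery (numbered 1, 2 and 3). Whether replicates stand for different animals or litters is not stated, so SDs and p-values cover the spread between these libraries, which may be technical. The labels also leave unsaid whether libraries with the same number, such as replicate 3 of both mesenteric groups, shared a batch, and the part of a batch in what those libraries have in common was not tested.

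Hox genes encode homeodomain transcription factors and lie in 4 clusters, HoxA to HoxD, in an order that mirrors where each is used along the body axis. Genes of paralogous groups 9 to 13 form the posterior end of each cluster, and their proteins bind DNA together with cofactors of the TALE family, Pbx and Meis. Adult blood vessels keep patterns of Hox expression that reflect their place of origin. In human endothelial cells HOXA9 is known to regulate genes of the activated and nitric oxide-producing endothelium, and HOXC9 to favour the resting state.

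Of both genes, a promoter sequence was at hand for Hoxa9. It is shown, as the 250 bases before the annotated start in RefSeq build GRCr8, beside that of its HoxD paralogue Hoxd9, the group 9 gene whose level did not drop in the same libraries. The counts themselves were made on build rn7, so these coordinates belong to the sequence table only. Capitals mark TGATTTAC, a composite motif of a Pbx and a group 9 Hox protein. Hoxa9 lies at chr4:82657049-82657298 on the minus strand and Hoxd9 at chr3:80007756-80008005 on the plus strand.
Hoxa9: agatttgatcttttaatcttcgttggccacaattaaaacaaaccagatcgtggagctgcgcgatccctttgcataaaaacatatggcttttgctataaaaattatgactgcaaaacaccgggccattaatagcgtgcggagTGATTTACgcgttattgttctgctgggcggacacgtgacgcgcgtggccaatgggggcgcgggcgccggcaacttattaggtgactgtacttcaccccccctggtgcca
Hoxd9: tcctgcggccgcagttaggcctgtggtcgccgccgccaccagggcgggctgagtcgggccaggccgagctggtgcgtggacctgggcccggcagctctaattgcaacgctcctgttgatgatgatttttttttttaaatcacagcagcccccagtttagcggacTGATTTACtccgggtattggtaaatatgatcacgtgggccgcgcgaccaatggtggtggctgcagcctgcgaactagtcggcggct
TGATTTAC begins 109 bases before the start in Hoxa9 and 86 bases before it in Hoxd9, on the strand of the gene in both. Searched on both strands, it was found in 144 of 33469 such windows (0.43%). The related TGATTTAT (in 0.831% of windows) and the Meis motif TGACAG (in 15.8%) were absent from both windows, and CCAAT (in 34.0%) was present once in Hoxa9 and at 2 places in Hoxd9. The windows of Hoxa11 and Hoxd10 held neither TGATTTAC nor TGATTTAT. A match of letters is not a measured binding site.

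Total counts ran from 10388231 to 12357489 in the mesenteric high-sucrose, from 11194622 to 15420546 in the pulmonary control and from 11011268 to 14910903 in the mesenteric control libraries. Acta2, the smooth muscle actin, was at 748 CPM or more and Pecam1, an endothelial adhesion protein, at 203 CPM or more in all 9. All 10 lymphocyte and all 7 lung epithelium markers peaked in pulmonary replicate 4, and all 8 cardiac muscle markers in pulmonary replicate 2. Smooth muscle markers summed to 21700, 23700 and 3720 CPM in pulmonary replicates 1, 2 and 4. Adventitial fibroblast markers summed to 7770, 6620 and 1550 CPM there, so replicate 4 was lowest for both. Levels are CPM, the usual depth-scaled counts, here on a library's TMM-scaled total. CPM are not divided by gene length, so a gene is compared between libraries and not with other genes.

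Hoxa9, a HoxA gene known for its role in the posterior trunk and in blood cell precursors, had 232, 160 and 14 counts in replicates 1, 2 and 3 of high-sucrose mesenteric artery. It had 279, 176 and 0 counts in mesenteric control replicates 1, 2 and 3. On the CPM scale these levels were 17.9, 15.2 and 1.34 in the high-sucrose libraries, against 18.8, 15.1 and 0 in the control libraries. Replicates 1 and 2 of both groups thus lay close together, and replicate 3 of both groups lay far below them. The exact Poisson 95% interval, which covers counting error only, was 0.731 to 2.24 CPM in high-sucrose replicate 3. A count of 0 is read against a floor of 3 counts, which is 0.28 CPM in control replicate 3, and the 2-sided Poisson interval drawn in the plot of both genes reaches somewhat higher, to 0.345 CPM. In the other 4 mesenteric libraries no interval began below 12.9 CPM. High-sucrose replicate 1 was 13.4-fold (7.82 to 24.9) and replicate 2 11.4-fold (6.57 to 21.2) above replicate 3. With control replicate 3 set at that floor, control replicates 1 and 2 were at least 67-fold and at least 54-fold higher. In these bulk libraries, fewer cells that express Hoxa9 and less Hoxa9 RNA per cell cannot be told apart.

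Hoxc9, its HoxC counterpart, is known from mice for a role in the thoracic skeleton. It had 27, 26 and 3 counts in replicates 1, 2 and 3 of high-sucrose mesenteric artery, and 30, 11 and 2 counts in mesenteric control replicates 1, 2 and 3. The levels were 2.08, 2.47 and 0.287 CPM in the high-sucrose libraries, against 2.02, 0.947 and 0.187 CPM in the control libraries. Replicate 3 was again the lowest of each group. High-sucrose replicate 2 was 8.61-fold above replicate 3, with a counting interval of 2.64 to 44.5, and control replicate 1 was 10.8-fold above replicate 3 (2.74 to 93.3). Control replicate 2 stood between, 5.07-fold above replicate 3 (1.11 to 47.0), and its interval of 0.473 to 1.69 CPM overlapped both of the others.

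**Figure D1:**
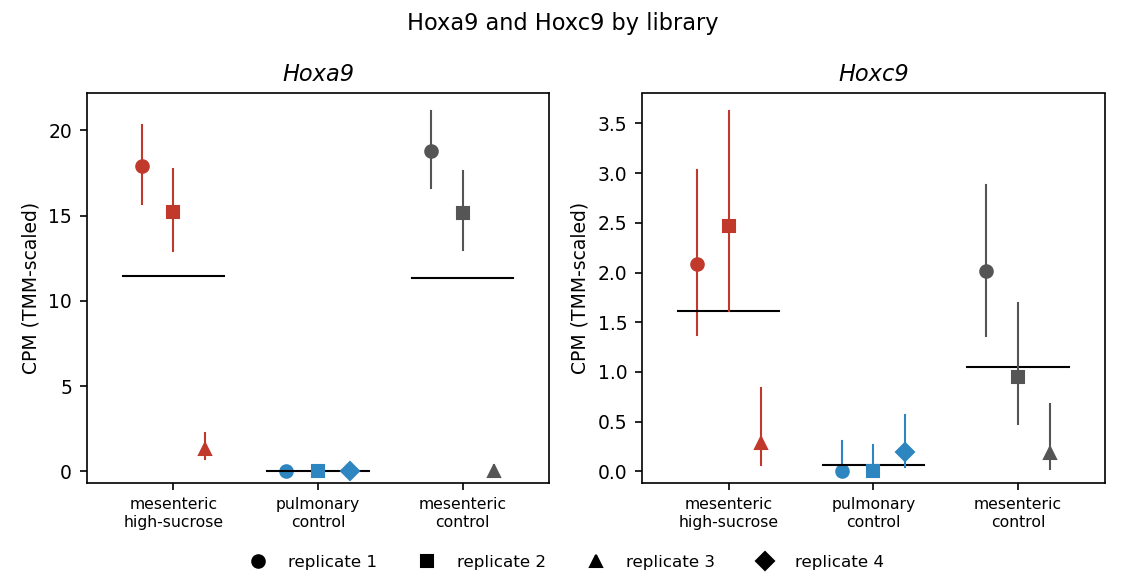
Level of Hoxa9 (left) and Hoxc9 (right) in CPM for each library of mesenteric high-sucrose, pulmonary control and mesenteric control artery. Symbols give the replicate number, vertical lines the exact Poisson 95% interval and horizontal lines the group mean; replicate 3 is the lowest of both mesenteric groups for both genes, at 1.34 and 0 CPM for Hoxa9.

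The variation of Hoxa9 was among the widest measured. Both genes were chosen because their CPM varied between these replicates, so their place among all genes is a description only. Its spread within the mesenteric groups, the pooled SD of log2 CPM with 2 counts added, was 3.10, and that of Hoxc9 was 1.38, where the median over the genes tested was 0.34. Of 13995 genes tested in mesenteric artery, 11 (0.0786%) spread at least as widely as Hoxa9 and 375 (2.68%) at least as widely as Hoxc9. Replicate 3 was the lowest library of both mesenteric groups for 12.8% of all genes tested. In 37 genes (0.264%) it was in addition at least 3-fold below each other library of its group, a size chosen after the values were seen. These 37 included Hoxa9, Hoxc9 and Hoxc10 and no other gene with a Hox symbol, and Hoxa11 met the same rule with too few counts to be tested. Of the 37, 17 had an identifier without a gene symbol, and what they encode was not examined. An unnamed feature, picked after its values were seen, had 202, 181 and 0 counts in the high-sucrose and 283, 116 and 1 in the mesenteric control libraries. In the pulmonary libraries it had 1, 0 and 0 counts. Among the other genes with a symbol were Postn and Ltbp2, matrix proteins, Nfasc, a cell adhesion protein, and Bmpr1b, a receptor of bone morphogenetic proteins, named after their values were seen.

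Between the mesenteric groups the genes overlapped and their means lay within the spread. Hoxa9 averaged 11.5 ± 8.88 CPM in high-sucrose and 11.3 ± 9.96 CPM in control artery (SD, n = 3 each), a fitted log2 fold change of 0.02. Hoxc9 averaged 1.61 ± 1.16 CPM in high-sucrose and 1.05 ± 0.921 CPM in control artery, a fitted log2 fold change of 0.60. The library left out set the sign for Hoxa9, whose log2 fold change was 0.53 without high-sucrose replicate 3 and −0.56 without control replicate 3. For Hoxc9 it was 1.47 without control replicate 1 and 0.12 without control replicate 3. Over all genes, edgeR's quasi-likelihood test called 0 of 13995 (0%), with 279 (1.99%) at an unadjusted p under 0.05, and DESeq2 called 3. The groups did not overlap, with higher levels in high-sucrose artery, for 2.66% of genes.

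Pulmonary artery held next to no RNA of either gene. Hoxa9 had 0, 0 and 0 counts in pulmonary replicates 1, 2 and 4, where the floor of 3 counts per library is 0.248, 0.215 and 0.194 CPM. Summed over the groups, Hoxa9 had 0 counts in pulmonary and 455 in mesenteric control artery, and was at least 169-fold lower in pulmonary artery at a floor of 3 counts over the group. This bound was 109-fold without mesenteric control replicate 1, 112-fold without pulmonary replicate 2 and 106-fold without pulmonary replicate 4. Hoxc9 had 0, 0 and 3 counts in pulmonary replicates 1, 2 and 4, against 43 counts over the mesenteric controls, a level 16.0-fold lower with a counting interval of 5.12 to 80.7. It was 8.06-fold lower without mesenteric control replicate 1 and 10.6-fold lower without pulmonary replicate 2. For both genes mesenteric control replicate 3 lay within the pulmonary range or beside it. Hoxa9 was at 0 in both, and Hoxc9 was at 0.194 CPM in pulmonary replicate 4 and 0.187 CPM in mesenteric control replicate 3. The lowest high-sucrose library, replicate 3, had 14 counts of Hoxa9 and 3 of Hoxc9. Ordered by group mean, high-sucrose and control mesenteric artery came first for both genes and did not differ beyond their spread, with pulmonary artery last.

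All 3 pulmonary counts of Hoxc9 came from replicate 4, the library with the high lymphocyte and lung epithelium markers. Without it, Hoxc9 had 0 pulmonary counts and was at least 10-fold lower in pulmonary artery at a floor of 3 counts over the group (log2 ratio −3.33, against −4.00 with it). Other HoxC genes were also highest there among the pulmonary libraries. Hoxc4 had 4, 2 and 31 counts and Hoxc6 2, 4 and 18 counts in pulmonary replicates 1, 2 and 4. The lymphocyte markers summed to 18.7, 9.10 and 1670 CPM in these libraries, and their part in the HoxC counts was not tested. Neither member entered the fit of pulmonary against mesenteric control artery, because the filter on low counts asks for enough counts in 3 libraries and mesenteric control replicate 3 fell short.

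The other posterior Hox genes behaved in different ways in the same libraries. Hoxc10, the neighbour of Hoxc9, had 16, 27 and 0 counts in replicates 1, 2 and 3 of high-sucrose mesenteric artery. It had 0, 0 and 1 counts in pulmonary replicates 1, 2 and 4, and 30, 5 and 0 counts in mesenteric control replicates 1, 2 and 3. Hoxc10 thus had no count in replicate 3 of either mesenteric group, where the floor of 3 counts is 0.286 CPM in high-sucrose and 0.28 CPM in control artery. Hoxa11, a posterior HoxA gene, had 7, 4 and 0 counts in the high-sucrose and 5, 7 and 0 in the control mesenteric libraries, and 0 in every pulmonary library. With so few counts, the Poisson intervals of its replicates overlapped, reaching 0.352 CPM in high-sucrose replicate 3 against 0.217 to 1.11 CPM in replicate 1.

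Hoxd9, the group 9 gene of the HoxD cluster, did not follow Hoxa9. It had 9.18, 6.36 and 9.84 CPM in replicates 1, 2 and 3 of high-sucrose mesenteric artery, and 6.60, 7.57 and 10.5 CPM in mesenteric control replicates 1, 2 and 3. Replicate 3 was the highest library of each group. The group means were 8.46 ± 1.85 CPM in high-sucrose and 8.21 ± 2.01 CPM in control artery (SD, n = 3 each), a log2 fold change of 0.05 ± 0.30 (SE, adjusted p = 1.00 by edgeR). In pulmonary artery Hoxd9 was at 0.414, 1.29 and 0.194 CPM, with no overlap with the mesenteric controls. Its log2 fold change of −3.69 ± 0.74 (SE) did not pass by edgeR (adjusted p = 0.272) and passed by DESeq2.

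Hoxb9 and Hoxd10 varied at counts too low to tell whether they share a pattern. Hoxb9, the group 9 gene of HoxB, had 17, 4 and 0 counts in replicates 1, 2 and 3 of high-sucrose mesenteric artery and 6, 18 and 3 counts in mesenteric control replicates 1, 2 and 3. Replicate 3 was lowest in each group, but in the controls the Poisson intervals of replicates 1 and 3 overlapped. Hoxd10 had 11, 11 and 4 counts in the high-sucrose and 6, 13 and 5 counts in the control libraries. By CPM replicate 3 was its lowest high-sucrose library, while control replicate 1 lay below control replicate 3 (0.404 against 0.467 CPM). Both had 0 counts in all pulmonary libraries. Hoxa13, Hoxb13, Hoxd11 and Hoxd13 had 0 counts in all 9 libraries, and Hoxc11, Hoxc12, Hoxc13 and Hoxd12 had 2, 1, 6 and 1 counts in all. Hoxa10 and Hoxb2 were not analysed here.

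**Figure D2:**
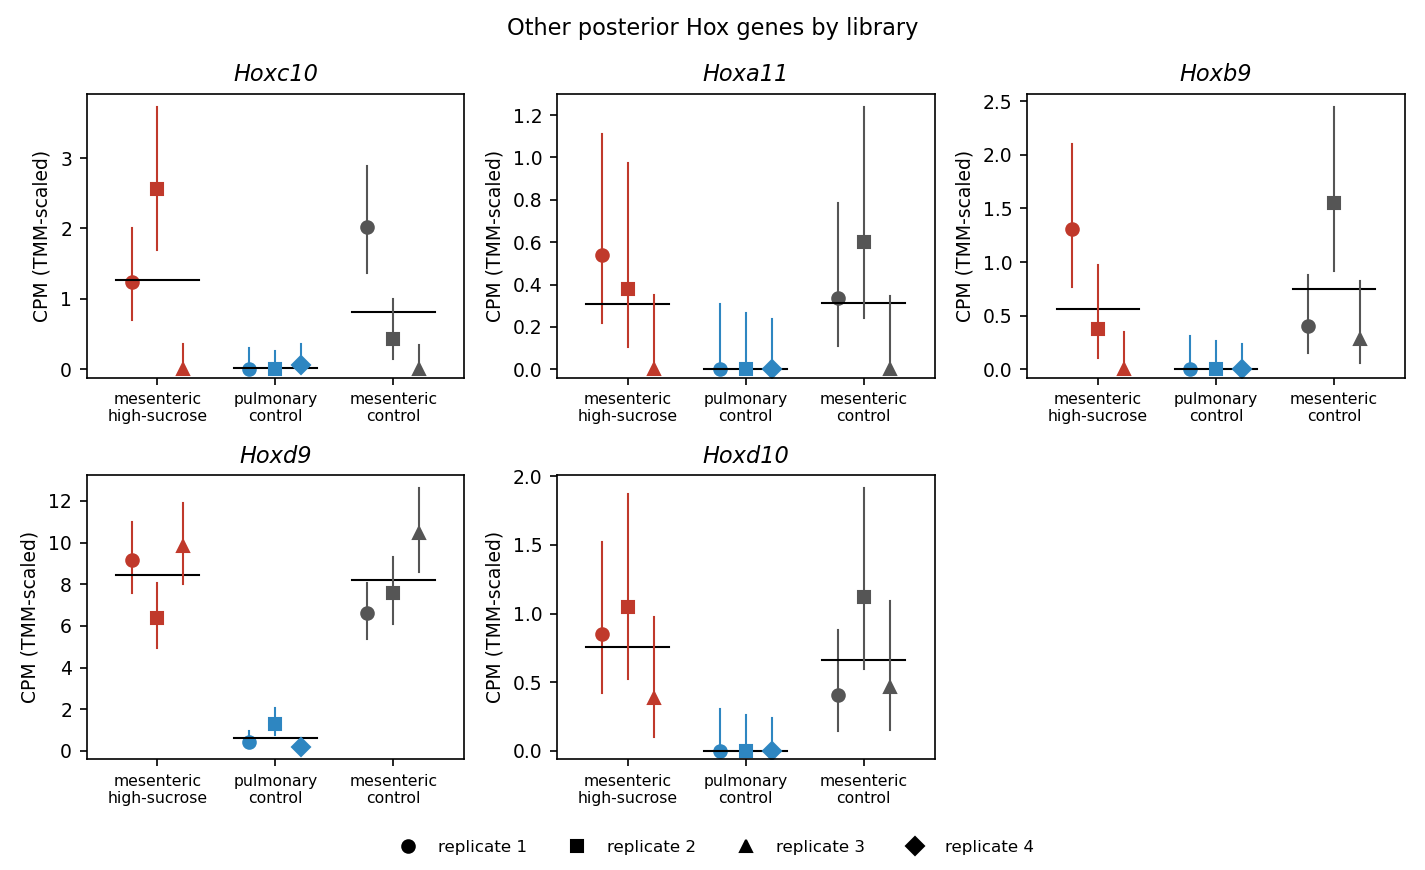
Levels in CPM of 5 other posterior Hox genes in each library, drawn with symbols for the replicate number, exact Poisson 95% intervals and a line at the group mean. Hoxc10 and Hoxa11 are at 0 in replicate 3 of both mesenteric groups, while Hoxd9 is at 9.84 and 10.5 CPM there.

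Along the clusters the low values of replicate 3 were not shared by all Hox genes. In the order of RefSeq, Hoxa9 follows Hoxa5, Hoxa6 and Hoxa7, and Hoxc9 lies between Hoxc10 and Hoxc8. Leaving out Hoxa9 and Hoxc9 themselves, among genes with at least 10 counts in the mesenteric libraries replicate 3 was the lowest of both groups for 2 of 8 HoxA, 4 of 7 HoxB, 5 of 5 HoxC and 1 of 5 HoxD genes, beside the 12.8% of all genes tested. In HoxA these were Hoxa6 and Hoxa11. Hoxa11, Hoxb9 and Hoxd10 had too few counts to be tested and are not part of that 12.8%. Among the genes tested, members left out, it held for 3 of 6 HoxB and 1 of 4 HoxD genes, and of 7 HoxA genes for Hoxa6 alone. Hoxa6 was at 5.32, 4.27 and 3.63 CPM in the high-sucrose and 2.89, 11.7 and 1.59 CPM in the control libraries. Hoxa7 was at 5.94, 3.42 and 4.97 CPM in the high-sucrose libraries, where replicate 3 was the middle value, and at 4.51, 3.87 and 2.15 CPM in the control libraries. High-sucrose replicate 3 therefore lay inside the range of its group for Hoxa7 and far below it for the next gene measured, Hoxa9.

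The 5 other HoxC genes were lowest in replicate 3 of both groups like Hoxc9, by amounts that differed between genes. Hoxc8, a trunk gene, was at 22.8, 16.8 and 15.7 CPM in replicates 1, 2 and 3 of high-sucrose artery and at 16.4, 20.0 and 9.90 CPM in control replicates 1, 2 and 3. Hoxc6 was at 30.3, 38.3 and 21.5 CPM in the high-sucrose and 24.8, 35.5 and 15.0 CPM in the control libraries. For both, replicate 3 stayed within 3-fold of the other libraries, while Hoxc9 and Hoxc10 did not.

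**Figure D3:**
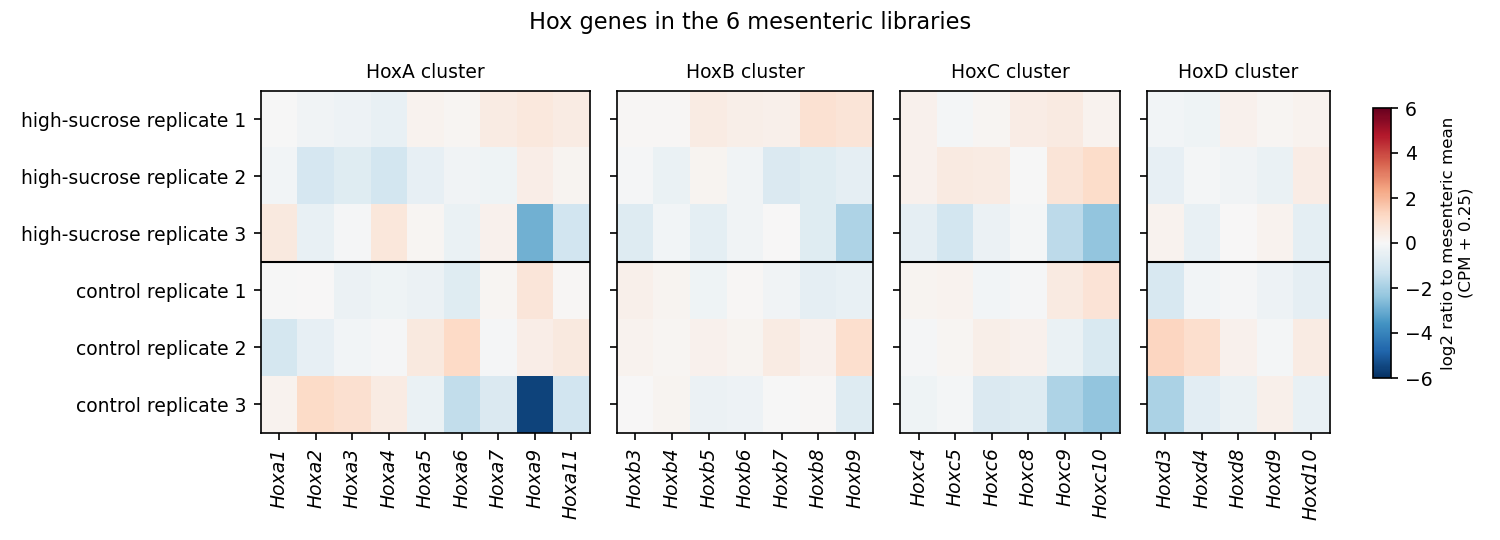
Log2 ratio of each Hox gene with at least 10 counts in the mesenteric libraries to its mean over these 6 libraries (0.25 CPM added), with genes in the order of their number within each cluster and high-sucrose libraries above control libraries. The deepest blue is Hoxa9 in control replicate 3, at −5.54, followed by Hoxa9 in high-sucrose replicate 3, at −2.88, and Hoxc10 in both, at −2.37.

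The lists of Hox genes had no call between the mesenteric groups. Without the 2 members, edgeR called 0 of 2 tested posterior, 0 of 7 HoxA, 0 of 6 HoxB, 0 of 5 HoxC and 0 of 4 HoxD genes, beside 0% of all genes. The median log2 fold changes of the clusters were −0.16 for HoxA, −0.10 for HoxB, 0.26 for HoxC and −0.09 for HoxD, and 0.00 over all genes tested. Between pulmonary and mesenteric control artery edgeR called 0 of 1 posterior, 0 of 7 HoxA and 0 of 6 HoxB genes tested. It also called 0 of 4 HoxC and 0 of 4 HoxD genes, beside 2 of 14315 genes (0.014%). Over all genes, 1221 (8.53%) had an unadjusted p under 0.05 by edgeR. DESeq2, run without edgeR's filter on low counts, called 462 of the 30452 features counted. Features with no count in these libraries were not tested, so the share of tested features called was higher. Among the 462 were 3 of 10 HoxA, 4 of 9 HoxB, 4 of 8 HoxC and 3 of 10 HoxD genes, members left out. These are likewise shares of the genes found in the counts, tested or not. Of the genes tested by edgeR, 3 of 7 HoxA, 4 of 6 HoxB, 4 of 4 HoxC and 3 of 4 HoxD genes did not overlap. Their levels were lower in pulmonary artery, as without overlap for 7.59% of all genes. The trunk gene Hoxc8 had 1, 0 and 0 counts in pulmonary replicates 1, 2 and 4, against 243, 232 and 106 in the mesenteric controls, and Hoxa5 had a log2 fold change of −2.07 ± 0.42 (SE, adjusted p = 0.273 by edgeR). Hoxa2, Hoxa3 and Hoxa4 overlapped, with log2 fold changes of −0.43, −0.21 and 0.70. For each of them replicate 4 was the lowest pulmonary library, with Hoxa4 at 11.3, 10.4 and 4.20 CPM in pulmonary replicates 1, 2 and 4.

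The TALE cofactors, with which Hox proteins bind DNA, were present in every library. Of 9 listed, 8 were tested in each comparison and edgeR called 0, with 0 at an unadjusted p under 0.05 and 0 by DESeq2 in both. The median log2 fold change was −0.15 between high-sucrose and control mesenteric artery and −0.25 between pulmonary and mesenteric control artery. Replicate 3 was the lowest library of both groups for 3 of 8 members, among them Pbx2 and Pknox2, beside the 12.8% of all genes tested. Pknox2 was at 24.2, 21.9 and 14.1 CPM in the high-sucrose and 28.7, 21.3 and 16.3 CPM in the control libraries. The summed list was lowest there too, at 425, 366 and 306 CPM in the high-sucrose and 437, 400 and 372 CPM in the control libraries, and its part in the Hox levels was not tested. Meis1, named after its values were seen, was not lowest in replicate 3 of the controls, at 96.8, 71.4 and 50.2 CPM in the high-sucrose and 77.5, 48.9 and 69.8 CPM in the control libraries.

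Polycomb and Trithorax proteins silence Hox genes or keep them active. Of 34 tested between the mesenteric groups, edgeR called 0, with a median log2 fold change of 0.00 and 0 at an unadjusted p under 0.05. Phc3, a Polycomb subunit, had a log2 fold change of 0.64 ± 0.31 and Kmt2b, a Trithorax methyltransferase, 0.35 ± 0.26 (SE). Replicate 3 was the lowest library of both groups for 3 of the 34, Kmt2a, Ash1l and Wdr5, a share below the 12.8% of all genes tested. Between pulmonary and mesenteric control artery edgeR called 0 of 35, with 1 at an unadjusted p under 0.05 and 0 by DESeq2. Cbx2, another Polycomb subunit, averaged 4.68 ± 5.15 CPM in pulmonary and 0.919 ± 0.563 CPM in mesenteric control artery (SD, n = 3 each).

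Signals that set Hox boundaries in the embryo, retinoic acid, Cdx factors and Gdf11, had 15 tested genes between the mesenteric groups and 0 called by edgeR or DESeq2, with 2 at an unadjusted p under 0.05. Aldh1a1, a retinaldehyde dehydrogenase, was at 5.78, 2.28 and 13.2 CPM in replicates 1, 2 and 3 of high-sucrose mesenteric artery, against 41.7, 23.3 and 26.2 CPM in mesenteric control replicates 1, 2 and 3. The groups did not overlap, as for 3.33% of all genes with lower levels in high-sucrose artery, and the log2 fold change was −2.09 ± 0.58 (SE, adjusted p = 1.00 by edgeR). Between pulmonary and mesenteric control artery edgeR called 0 of 17, with 3 at an unadjusted p under 0.05, and DESeq2 called 1. That was Stra6, the receptor for retinol binding protein, at 5.30, 1.29 and 22.1 CPM in replicates 1, 2 and 4 of pulmonary artery and at most 0.344 CPM in the mesenteric controls, without overlap, as for 6.41% of all genes with higher levels in pulmonary artery. Gdf11, a growth factor that sets posterior Hox boundaries in mice, had a log2 fold change of −1.27 ± 0.45 (SE, adjusted p = 0.525 by edgeR).

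Genes tied to HOXA9 in human endothelial cells summed to 299, 265 and 677 CPM in replicates 1, 2 and 3 of high-sucrose mesenteric artery. In mesenteric control replicates 1, 2 and 3 they summed to 146, 401 and 295 CPM. Nos3, the endothelial nitric oxide synthase, averaged 277 ± 176 CPM in high-sucrose and 188 ± 91.8 CPM in control mesenteric artery (SD, n = 3 each), and Kdr, a receptor of vascular endothelial growth factor, averaged 43.7 ± 14.4 CPM in high-sucrose and 27.9 ± 18.1 CPM in control artery. Of the 4 listed genes, Nos3, Kdr, Ephb4 and Sele, 0 were called in either comparison, with 0 at an unadjusted p under 0.05 and 0 by DESeq2. Replicate 3 was not the lowest library of both mesenteric groups for any of them, beside 12.8% of all genes tested. With 4 genes, a count of 0 cannot tell them from other genes at that share. Blood endothelium markers, given below, each peaked in replicate 3 of 1 of the mesenteric groups. The part of Hoxa9 or of endothelial content in the levels of these 4 genes was not tested.

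Of the cell type lists, 1 had its lowest sum in replicate 3 of both mesenteric groups, by a margin far smaller than that of Hoxa9 in high-sucrose artery. Lymphatic endothelium markers summed to 654, 878 and 622 CPM in replicates 1, 2 and 3 of high-sucrose mesenteric artery and to 460, 1130 and 261 CPM in mesenteric control replicates 1, 2 and 3, lowest in replicate 3 of each group. This held for 2 of their 7 members, Pdpn and Ccl21, beside the 12.8% of all genes tested. Ccl21, a chemokine of lymphatic vessels, was at 287, 309 and 105 CPM in the high-sucrose, 20.0, 20.1 and 120 CPM in the pulmonary and 230, 302 and 128 CPM in the mesenteric control libraries. Prox1, the defining transcription factor of that cell type, was named after its values were seen. It went the other way in the high-sucrose libraries, at 0.771, 1.71 and 3.63 CPM. No marker of the list was at 0. The part of lymphatic vessels in the Hoxa9 and Hoxc9 levels was not tested.

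Blood endothelium markers were high in replicate 3 of the mesenteric groups, where the members were low, but not in pulmonary artery. Of 7 markers found, 4 had their highest level of all 9 libraries in mesenteric high-sucrose replicate 3 and the other 3 in mesenteric control replicate 3. Pecam1 was at 670, 679 and 957 CPM in the high-sucrose and 554, 790 and 1060 CPM in the control libraries. The summed markers were 2070, 1470 and 3530 CPM in the high-sucrose and 1390, 2910 and 2510 CPM in the control libraries, so control replicate 2 exceeded replicate 3. In pulmonary replicates 1, 2 and 4, where the members were at or near 0, the markers summed to 1640, 2030 and 654 CPM. Smooth muscle markers summed to 24800, 30700 and 18600 CPM in the high-sucrose and 44400, 11700 and 32600 CPM in the control libraries, lowest in replicate 3 of the first group and replicate 2 of the second. Of the markers tested, replicate 3 was lowest in both groups for 0 of 9 smooth muscle and 0 of 7 blood endothelium markers. It was so for 0 of 9 adventitial fibroblast, 0 of 9 white fat, 0 of 3 brown fat and 0 of 6 lymphocyte markers. The same held for 0 of 8 macrophage, 0 of 4 mesothelium, 0 of 5 cardiac muscle and 0 of 2 lung epithelium markers. It held for 0 of 7 glia, 0 of 3 neuron and 0 of 2 kidney or adrenal markers. In the skeletal muscle list it held for 1 of 4, Tnnt3. The share over all genes tested was 12.8%, so a count of 0 in lists this short tells little. No gut epithelium marker had enough counts to be tested. The part of these cell types in the Hox levels was not tested.

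**Figure D4:**
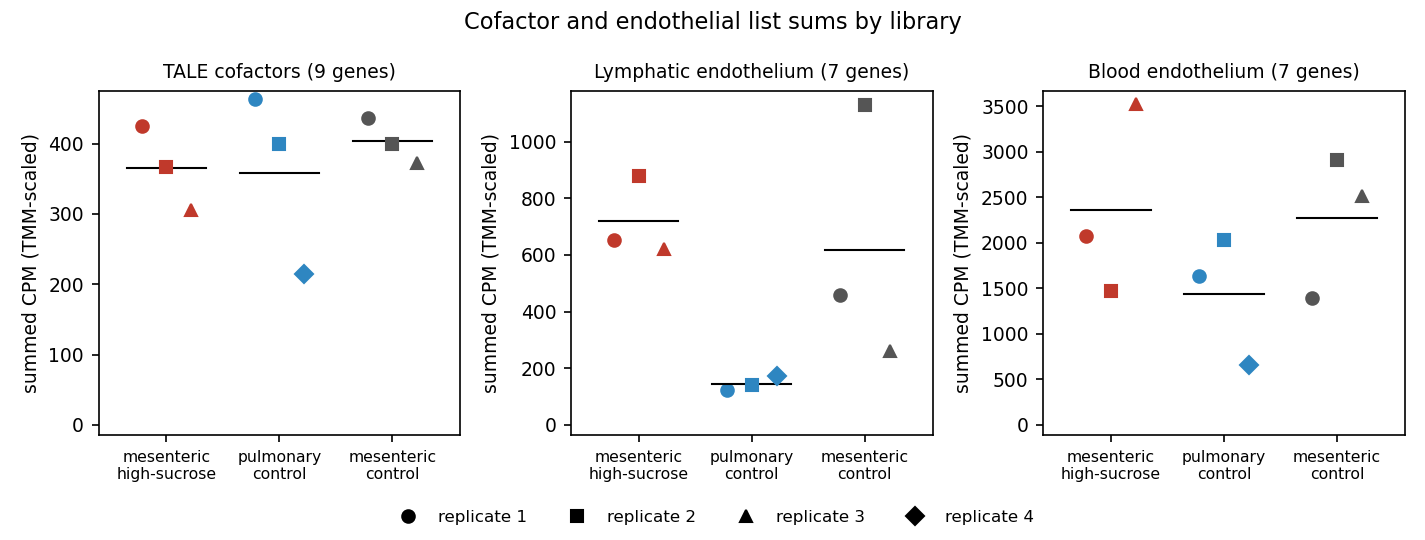
Summed CPM of the TALE cofactors, the lymphatic endothelium markers and the blood endothelium markers in each library, with symbols for the replicate number and a line at the group mean. The first pair of lists is lowest in replicate 3 of both mesenteric groups, at 306 and 372 CPM for the cofactors, while the blood endothelium markers reach 3530 and 2510 CPM there.

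Likeness to the members was measured as Pearson's r of log2 CPM, given as a description of libraries that share tissue, depth and the low values of replicate 3. Hoxa9 and Hoxc9 had r = 0.91 over the 6 mesenteric and r = 0.94 over all 9 libraries. Over the mesenteric libraries Hoxc9 ranked 97 of 11948 genes by likeness to Hoxa9, and Hoxa9 ranked 150 by likeness to Hoxc9. Nearest to Hoxa9 there were Tmprss6, Rnf25, Akap13, Msantd1 and Pyroxd2 (r from 0.985 to 0.990). Nearest to Hoxc9 were Csrnp2, Itgb3, Ulk3, Fhip2b and Hoxc10 (r from 0.985 to 0.995). Pearson's r takes no account of the size of a change. Rnf25 was at 37.8, 36.6 and 34.0 CPM in the high-sucrose and 37.9, 36.5 and 30.5 CPM in the control libraries, a far smaller drop than that of Hoxa9. Itgb3, the integrin beta 3 chain, was at 47.5, 54.7 and 17.6 CPM in the high-sucrose and 48.3, 36.0 and 14.9 CPM in the control libraries. Akap13, a kinase anchor protein, was unlike the members well above 0 in pulmonary artery, at 168, 257 and 136 CPM in replicates 1, 2 and 4. With a library left out, 0 to 2 of the 5 stayed among the 5 nearest for either member.

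Over all 9 libraries the nearest to Hoxa9 were Rims1, Fam205a, Traf3ip2, C4b and Postn (r from 0.879 to 0.974), and to Hoxc9 Rpap3, Hoxa9, Rims1, Fnbp1 and Kif1a (r from 0.917 to 0.961). Rims1, a protein of transmitter release in neurons, was at 5.63, 6.07 and 2.67 CPM in replicates 1, 2 and 3 of high-sucrose mesenteric artery. It was at 0.497, 0.716 and 0.645 CPM in replicates 1, 2 and 4 of pulmonary artery, and at 6.39, 8.26 and 1.21 CPM in mesenteric control replicates 1, 2 and 3. Postn, the matrix protein periostin, was at 374, 319 and 48.8 CPM in the high-sucrose, 47.3, 76.1 and 48.3 CPM in the pulmonary and 198, 136 and 31.9 CPM in the mesenteric control libraries. Both genes thus had replicate 3 lowest in each mesenteric group, and for Postn these 2 libraries lay within or below the pulmonary range. C4b, a complement component, was at 321, 391 and 227 CPM in the high-sucrose, 137, 147 and 110 CPM in the pulmonary and 275, 205 and 162 CPM in the mesenteric control libraries.

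**Figure D5:**
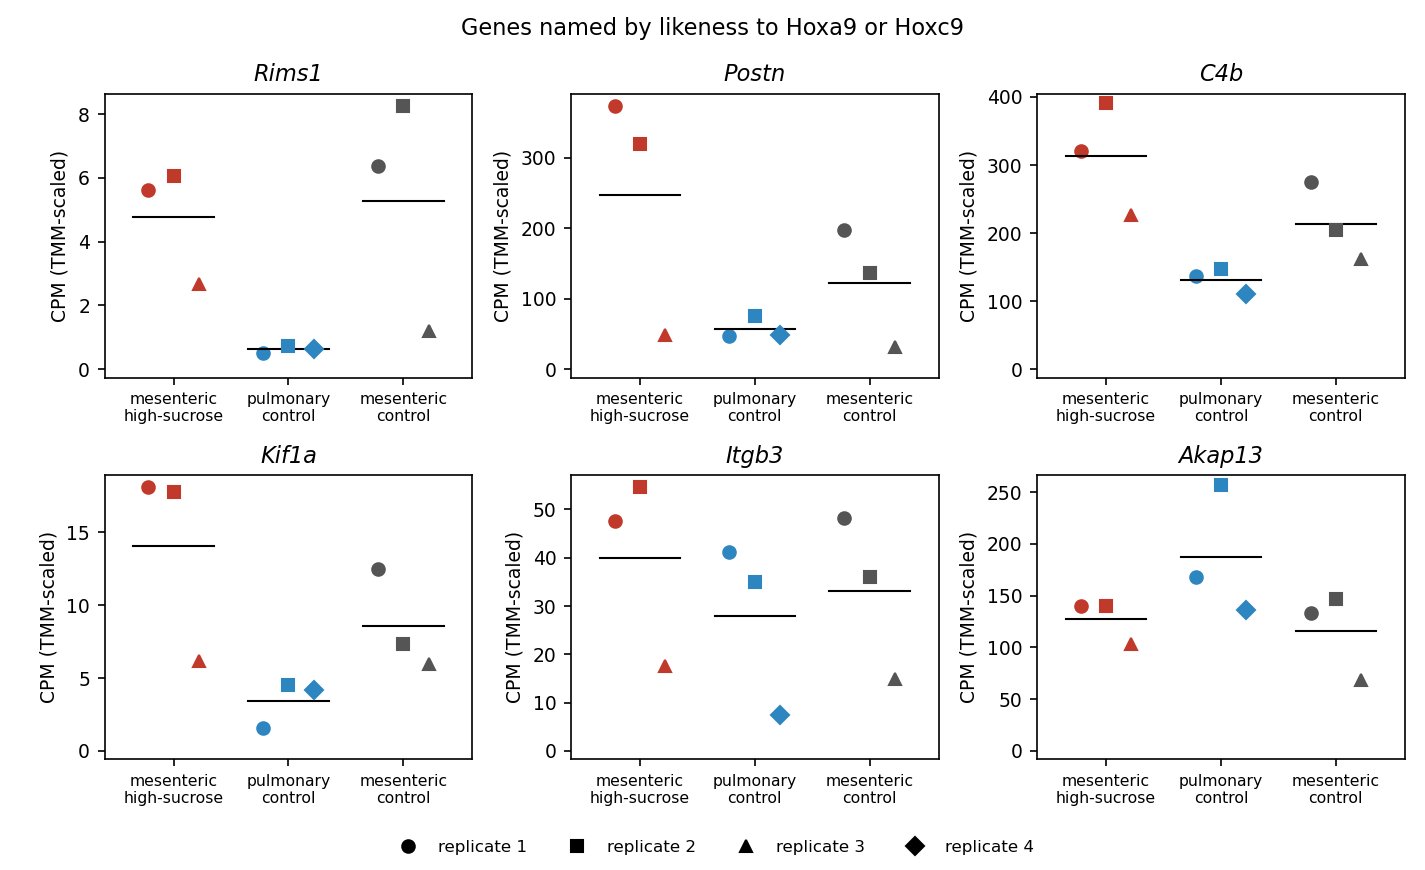
Levels in CPM of 6 of the genes nearest to Hoxa9 or Hoxc9 by Pearson's r, in each library, with symbols for the replicate number and a line at the group mean. Replicate 3 is the lowest library of both mesenteric groups in each of the 6 panels, at 48.8 and 31.9 CPM for Postn.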

How the data were processed

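The authors deposited whole-number read counts per gene for each library, on rat build rn7 per the submitters' processing notes. No aligner, annotation or strand setting was given in the sources used here, so reads of a gene and of an overlapping antisense gene may not be told apart. Features on repeated names (2394 of 30452) were kept in library totals. Replicates of a group differed by far more than counting noise (chi-square per degree of freedom of 42.5 or more), so none was counted as a duplicate. CPM used totals scaled by TMM over all 9 libraries, with exact Poisson 95% intervals. No molecular identifiers were recorded, so intervals and floors of 3 counts cover counting error only. Comparisons used edgeR 4.0.16 in R 4.3.3 (quasi-likelihood F test, robust, TMM, low-count filter by filterByExpr), with Benjamini-Hochberg adjustment and a threshold of 0.05, in the libraries of both groups only. The code was tested on simulated data. DESeq2 1.42.0, other scalings, no filter, 1 fit of all libraries, a replicate block and left-out libraries were alternatives. The genes and lists were chosen with earlier results of these data known. Named were both members, the other posterior Hox genes and cluster neighbours with at least 10 counts, the 5 genes most like each member (a symbol and a mean of at least 1 CPM), and up to 3 genes per list with the smallest p. Sequences came from RefSeq GRCr8, matched by symbol. A promoter was matched for 1 of the 2 members, and Hoxc9 is named only. Some list members are not reported here.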

Additional observations from a re-analysis of the deposited data

How the results depend on the processing

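Counts of Hoxa9 and Hoxc9 set what could be seen: 861 and 102 over the 9 libraries, and the floor of 3 counts lay between 0.194 and 0.286 CPM. The per-library levels moved by less than the spread between replicates with plain totals or median-ratio factors. The fitted log2 fold changes between high-sucrose and control mesenteric artery ran from −0.56 to 0.57 for Hoxa9 and from 0.12 to 1.47 for Hoxc9 with a library left out. The pulmonary to mesenteric log2 ratios of summed counts ran from −7.89 to −6.73 for Hoxa9 and from −4.42 to −3.01 for Hoxc9. These ratios come from no fit, so DESeq2, the filter, 1 fit of all libraries and the block gave no value for them. DESeq2 called 3 genes between the mesenteric groups and 462 between pulmonary and mesenteric control artery, where edgeR called 0 and 2. For the second comparison 1 fit of all 9 libraries called 38 genes, and with a library left out 22 were called without pulmonary replicate 4 and 0 without any of the others. With pulmonary replicates 2 and 4 both left out, an alternative chosen after seeing the data, 0 were called. In that comparison 1 fit of all libraries called 2 HoxA, 2 HoxB, 2 HoxC and 1 HoxD gene, and with a library left out 0 to 1 HoxB and 0 to 3 HoxC genes were called, where the comparison as reported called 0. By Spearman's rho, 0 of the 5 genes nearest to Hoxa9 stayed over 6 or over 9 libraries, and for Hoxc9 0 stayed over 6 and 1 over 9 libraries. With a library left out, 0 to 2 stayed for either gene over 6 libraries, 1 to 5 for Hoxa9 and 2 to 4 for Hoxc9 over 9. The cause of these shifts was not tested.

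Replicate numbers were not taken to pair the samples, since not every same-numbered pair correlated above 0.1, and a shared batch was not tested: same-numbered high-sucrose and control mesenteric libraries had correlations of 0.20, −0.30 and 0.10 in their deviations from the group means, and high-sucrose replicate 2 correlated best with control replicate 1 (0.31). High-sucrose replicate 3 had correlations of −0.45, 0.26 and 0.10 with mesenteric control replicates 1, 2 and 3. Pulmonary and mesenteric control replicates 1 and 2 had 0.17 and −0.16. With the replicate number as a block, the log2 fold changes were 0.56 for Hoxa9 and 0.66 for Hoxc9, 0 genes were called between the mesenteric groups, and 36 genes, 1 HoxB and 3 HoxC genes among them, between pulmonary and mesenteric control artery.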
